A study of Mus musculus with 3 samples.

Results

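Mesoderm was set against epiblast in the gastrulating mouse embryo at embryonic day 7.5 (E7.5), gene by gene on a microarray, and the genes were read by functional family. Of 18193 genes with a single gene symbol on the array, 12338 had at least 1 value of the pair above a floor, set at the median of the whole value table (intensity 80.6, log2 6.33), and 827 of them differed by at least 2-fold between the layers. Of these, 429 genes were higher in mesoderm and 398 were lower. The counts are 3.48% and 3.23% of the genes above the floor, or 6.7% together, and this background is the share against which the count of each family is read. Each gene was read from the probe set whose mean log2 over the arrays was highest.

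The series holds endoderm, mesoderm and epiblast, dissected from untreated embryos of the outbred ICR strain and hybridised to 1 Affymetrix Mouse Genome 430 2.0 array each. Per the study's methods the embryonic region was cut away from the extra-embryonic part, loosened with trypsin and pancreatin and separated by hand. Nothing in the sources used here says how many embryos were pooled. With 1 array per layer no difference has a replicate check and no p-value is given.

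During gastrulation, epiblast cells pass through the primitive streak, lose their epithelial contacts and migrate as a loose mesenchyme between epiblast and endoderm. The transition is driven by FGF, Nodal, BMP and WNT signals, and repressors of the Snail family turn off E-cadherin in the cells that leave. The mesoderm of this stage holds precursors of heart, blood vessels, blood, head mesenchyme and somites, whereas the epiblast still holds pluripotent cells, the streak and the future neural plate.

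The junction genes that were lower in mesoderm are shown by their promoters, because the CAGGTG form of the E-box (CANNTG) is the sequence that Snail and Zeb repressors are known to bind. Of 13 lower genes for claudins, other tight junction proteins, cadherins, desmosome proteins and the splicing regulator Esrp1, 10 had a promoter in the RefSeq table (GRCm38.p6). The others, Cdh1, Esrp1 and Marveld3, are named only. The 6 genes whose difference was largest with values below the floor raised to it are given 5′ to 3′ on the strand of the gene, as 300 bases with 250 before the start and 50 after it. Capitals mark CAGGTG or, where the motif lies on the other strand, CACCTG.
Cldn6 (chr17:23679115-23679414, + strand): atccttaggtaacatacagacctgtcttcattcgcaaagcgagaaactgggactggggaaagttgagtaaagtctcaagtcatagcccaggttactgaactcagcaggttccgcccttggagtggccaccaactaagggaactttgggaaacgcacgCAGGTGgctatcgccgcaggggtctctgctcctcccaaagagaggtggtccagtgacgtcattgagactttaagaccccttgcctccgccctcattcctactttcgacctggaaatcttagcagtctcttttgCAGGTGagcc
Cldn7, upstream start (chr11:69964529-69964828, + strand): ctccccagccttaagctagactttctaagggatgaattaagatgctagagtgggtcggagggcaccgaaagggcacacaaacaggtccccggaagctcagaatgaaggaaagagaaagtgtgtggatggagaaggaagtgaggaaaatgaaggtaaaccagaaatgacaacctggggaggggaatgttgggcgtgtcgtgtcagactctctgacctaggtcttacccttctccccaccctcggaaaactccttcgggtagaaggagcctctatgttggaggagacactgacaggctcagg
Cldn7, downstream start (chr11:69965171-69965470, + strand): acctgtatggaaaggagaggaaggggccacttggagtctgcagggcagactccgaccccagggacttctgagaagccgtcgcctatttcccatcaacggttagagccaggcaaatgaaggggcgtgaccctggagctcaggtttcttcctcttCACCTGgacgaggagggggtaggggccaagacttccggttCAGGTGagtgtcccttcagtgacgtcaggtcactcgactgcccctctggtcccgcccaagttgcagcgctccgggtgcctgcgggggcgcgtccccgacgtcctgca
Epcam (chr17:87635729-87636028, + strand): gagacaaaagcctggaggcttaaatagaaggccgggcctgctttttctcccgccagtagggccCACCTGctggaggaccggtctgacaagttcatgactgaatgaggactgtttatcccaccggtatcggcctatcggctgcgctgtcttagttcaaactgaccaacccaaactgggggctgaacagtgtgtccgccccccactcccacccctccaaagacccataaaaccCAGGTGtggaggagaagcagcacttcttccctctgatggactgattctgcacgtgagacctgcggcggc
F11r (chr1:171437311-171437610, + strand): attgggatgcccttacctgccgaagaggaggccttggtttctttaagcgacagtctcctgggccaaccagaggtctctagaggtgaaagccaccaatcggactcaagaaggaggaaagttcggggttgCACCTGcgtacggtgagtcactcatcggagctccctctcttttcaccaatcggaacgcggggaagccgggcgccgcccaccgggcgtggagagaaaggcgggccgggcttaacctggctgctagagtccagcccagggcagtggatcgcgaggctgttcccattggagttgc
Cgn (chr3:94786433-94786732, - strand): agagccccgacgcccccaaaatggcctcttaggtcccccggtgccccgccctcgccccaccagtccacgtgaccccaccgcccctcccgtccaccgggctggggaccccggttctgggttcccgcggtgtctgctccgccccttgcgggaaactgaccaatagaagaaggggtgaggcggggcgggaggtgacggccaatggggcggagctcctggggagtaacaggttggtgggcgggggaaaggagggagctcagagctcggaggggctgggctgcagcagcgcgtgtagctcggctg
Cldn4 (chr5:134946885-134947184, - strand): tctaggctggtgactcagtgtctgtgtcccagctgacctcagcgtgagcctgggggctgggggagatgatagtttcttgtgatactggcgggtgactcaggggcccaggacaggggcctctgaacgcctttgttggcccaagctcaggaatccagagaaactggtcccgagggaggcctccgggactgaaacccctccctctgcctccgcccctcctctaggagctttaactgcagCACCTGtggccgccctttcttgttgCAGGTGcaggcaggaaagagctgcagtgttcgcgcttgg
In Cldn6 the motif began 93 bases before the start and again 41 bases after it, and in Cldn4 it began 14 bases before and 12 bases after. Epcam and the downstream start of Cldn7 also held 2 copies each, F11r held 1, and Cgn and the upstream start of Cldn7 held 0. Counted over all 10 genes, 9 of their 13 promoters (69.2%) and at least 1 promoter of 7 genes held the motif on either strand, against 6640 of 32851 promoters in the table (20.2%). Both starts of Ocln and both overlapping starts of Marveld2 are among the 9, so the promoters are not independent. With mesoderm values raised to the floor, Ocln and Marveld2 were at least 1.59-fold and 1.74-fold lower, under the 2-fold limit. Promoters of junction genes that stayed level were not counted, so whether the motif goes with a lower value was not tested. A match describes the letters in this window and no binding was measured.

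**Figure D1:**
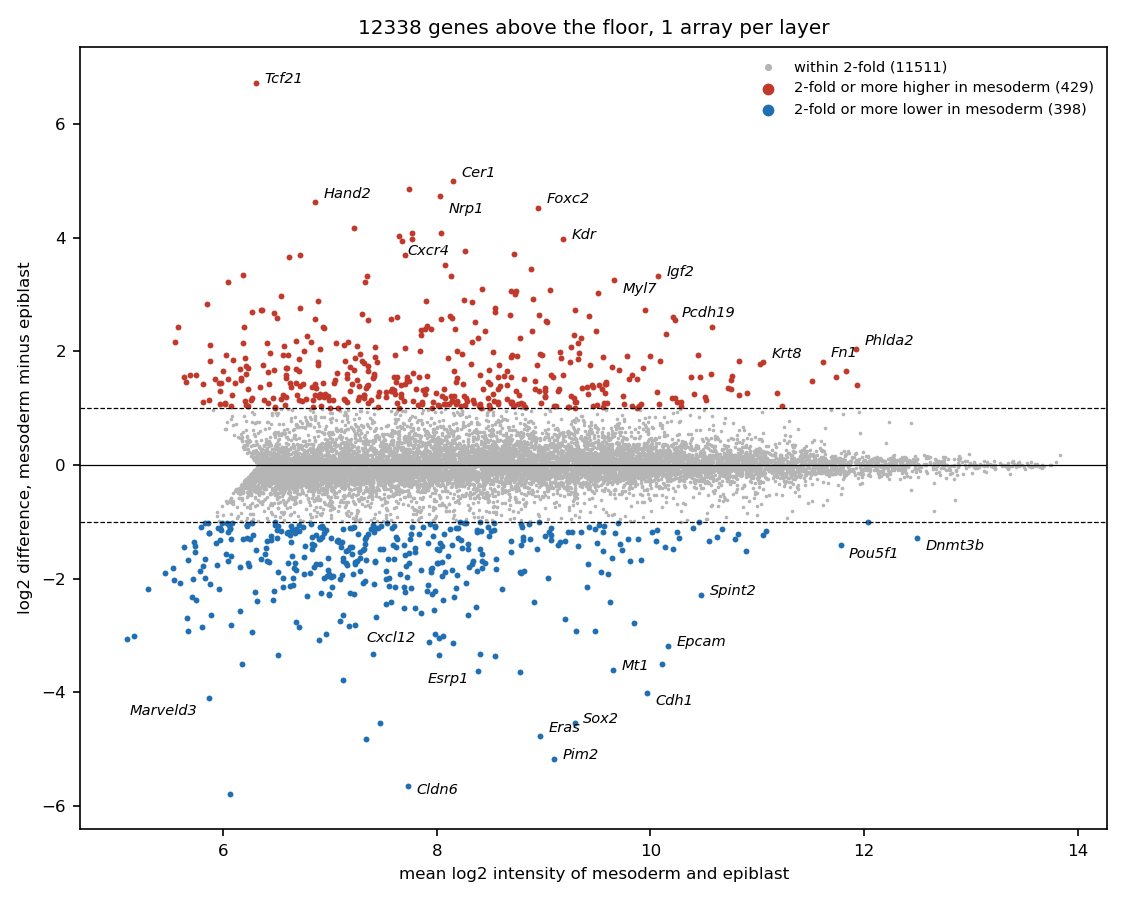
Log2 difference, mesoderm minus epiblast (vertical axis), against the mean log2 intensity of both layers (horizontal axis) for 12338 genes above the floor, 1 point per gene from 1 array per layer, with dashed lines at 2-fold. Red points are the 429 genes higher and blue points the 398 genes lower in mesoderm, and Pim2, Cldn6, Eras and Sox2 lie lowest among the labelled genes while Tcf21 lies highest.

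The layers were close to each other over most of the array. The log2 difference had a median of -0.02 and quartiles of -0.19 and 0.15, and the log2 values of the 18193 genes correlated at 0.973 (Pearson's r across genes, which are not replicates). Among 5267 genes read by more than 1 probe set above the floor, the log2 difference varied between probe sets of the same gene by 0.26 (pooled SD), which compares probe sets within the arrays and is not a spread between embryos. With values below the floor raised to it, 371 genes were higher and 313 lower, 76 and 65 of them by 4-fold and 25 and 19 by 8-fold. For 138 higher genes the epiblast value lay below the floor, and for 161 lower genes the mesoderm value did. Their folds are lower bounds, written as "at least". The 2-fold limit fell between Rab32 (1.002) and Hebp1 (0.9999) on the higher side and between Bex4 (-1.002) and Aff3 (-0.9995) on the lower side, on the log2 scale.

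Most listed markers of mesoderm and epiblast followed the labels of the layers. The lists were drawn with earlier results of these data known, so they are no independent check of the labels. The epiblast and pluripotency list also holds Cdh1 and Epcam, which were high on the endoderm array too (4562 and 4438). Of 16 mesoderm markers 14 were at least 2-fold higher in mesoderm and 0 were lower, with a median log2 difference of 2.72, and of 14 epiblast and pluripotency markers 13 were lower and 0 higher, with a median of -2.67. The exceptions were Tbx6 (721 in mesoderm and 564 in epiblast), Hand1 (323 in mesoderm and 325 in epiblast), whose second probe set above the floor was 1.60 higher on the log2 scale, and the Nodal coreceptor gene Tdgf1 (865 in mesoderm and 559 in epiblast). Visceral endoderm markers, with 6 of 11 genes above the floor in the pair, summed to 1404 in mesoderm and 1333 in epiblast against 69636 on the endoderm array. By the probe set that stands for each gene, 0 of them differed by 2-fold. For Ttr (0.37), 1 of 2 other probe sets above the floor was higher in mesoderm by 3.03 on the log2 scale. Definitive endoderm markers summed to 3560 in mesoderm and 1336 in epiblast, where Cxcr4, Cer1, Hhex and Sox17 were higher and Foxa2 and Trh lower in mesoderm. Parietal endoderm markers were higher in 5 and lower in 0 of 8 genes above the floor (median 1.44) and summed to 7308 in mesoderm and 4010.2 in epiblast against 15680.4 on the endoderm array. That list shares Lama1 and Col4a1 with the matrix families described further on. The part of endoderm cells in these values was not tested. Haemato-endothelial markers were higher in 4 and lower in 0 of 7 genes, primitive streak markers were higher in 0 and lower in 4 of 8, and neuroectoderm markers were higher in 1 and lower in 4 of 8. Markers of primitive erythroid cells, trophoblast and immune cells had 0 of 7 genes above the floor at 2-fold in either direction, by the probe set that stands for each gene. For the trophoblast marker Tfap2c (-0.32), both of the 2 other probe sets above the floor were at least 2-fold lower in mesoderm (lowest -2.81). In whole layers, fewer cells of a type and less RNA per cell cannot be told apart.

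Across 96 families, which together held 3483 genes above the floor, 87 had at least 1 gene past 2-fold. They took in 260 of the higher and 186 of the lower genes, 53.9% of all that passed. In 53 families genes passed in both directions, in 21 only higher and in 13 only lower. Among the 89 families with 10 or more genes above the floor, 33 had a share over 20%, and 22 lay at or below the 6.7% of all genes. Most families therefore held a few strongly different members beside many that stayed within 2-fold, and only protocadherins (median 1.14) and the 4 genes of the Grb adaptors (-1.21) had a median beyond 1 on the log2 scale. With the floor at the 75th percentile of all values, which keeps fewer genes, claudins (-4.83, 3 genes), BMP and GDF ligands (3.21, 4 genes), collagens (1.47, 8 genes) and cadherins (1.14, 4 genes) had one too.

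Several cell junction genes were far lower in mesoderm, beside others of the same families that were level. Claudins, the strand-forming proteins of tight junctions, were lower in 3 and higher in 1 of 10 genes. Cldn6 was 30.1 in mesoderm and 1510.1 in epiblast, at least 18.7-fold lower, and Cldn7 was 30.4 in mesoderm and 863 in epiblast, at least 10.7-fold lower. Both were thus well above the floor in epiblast and below it in mesoderm. Cldn4 was 47.5 in mesoderm and 176 in epiblast, at least 2.18-fold lower. The other claudins above the floor did not follow. Cldn3 was 235 in mesoderm and 271 in epiblast, and Cldn12 was 1497 in mesoderm and 1228 in epiblast. Cldn2 passed the limit the other way at 114 in mesoderm against 51.6 in epiblast, but its second probe set above the floor did not.

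Of 28 genes for other tight junction and polarity proteins, 6 were lower and 1 higher. With values below the floor raised to it, 4 were lower and 1 higher. Epcam, an epithelial surface protein that stabilises claudins, was 381 in mesoderm and 3456 in epiblast, 9.06-fold lower. Marveld3 was 14.1 in mesoderm and 242 in epiblast, at least 3.01-fold lower, and the related tricellulin gene Marveld2 was 18.5 in mesoderm and 141 in epiblast, at least 1.74-fold lower. The gene of occludin, the third protein of this kind, was also lower, with Ocln at 19.96 in mesoderm and 129 in epiblast, at least 1.59-fold lower. F11r, which encodes the junctional adhesion molecule JAM-A, was 444 in mesoderm and 1275 in epiblast, 2.87-fold lower, and the cytoplasmic plaque gene Cgn was 83 in mesoderm and 227 in epiblast, 2.73-fold lower. The scaffold and polarity genes at the base of the junction differed little. Tjp1 (ZO-1) was 2330.0 in mesoderm and 2734 in epiblast, and Pard3 was 592 in mesoderm and 568 in epiblast. Pard6g, a partner of Pard3, was the single gene that passed higher, at 1070.5 in mesoderm and 529 in epiblast.

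Cadherins divided within the family, with 2 of 10 genes higher and 2 lower. Cdh1, encoding E-cadherin, was 249.9 in mesoderm and 4021 in epiblast, 16.1-fold lower. Cdh2 (N-cadherin) was 2417 in mesoderm and 830.5 in epiblast, 2.91-fold higher, and Cdh11, the cadherin of mesenchyme, was 1711 in mesoderm and 454 in epiblast, 3.77-fold higher. Protocadherins, adhesion proteins of the same superfamily, were higher in 4 of 6 genes and lower in 1. Pcdh19 was 2918 in mesoderm and 481 in epiblast, 6.07-fold higher, and Pcdh8, which acts in paraxial mesoderm, was 1995 in mesoderm and 526 in epiblast, 3.796-fold higher. Pcdh7 (2.28-fold higher) and Pcdh18 (2.13-fold higher) were higher too, and another probe set of each of these 4 genes pointed the same way. Pcdh1 was the opposite case at 21.5 in mesoderm against 245 in epiblast. Only 6 of 35 protocadherin genes were above the floor, and with no floor the median of all was -0.0725.

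Some epithelial structural genes ran against the junctions. The simple keratin genes Krt8 and Krt18, whose products pair in single-layered epithelia, were 4001 in mesoderm and 1136 in epiblast and 2739.7 in mesoderm and 1086 in epiblast, 3.52-fold and 2.52-fold higher, while the other 17 keratin genes above the floor stayed within 2-fold. Dsp, the linker of desmosomes to keratin, was 1333 in mesoderm and 662 in epiblast, 2.01-fold higher. Jup (plakoglobin), its neighbour in the desmosome, was 134 in mesoderm and 281 in epiblast, 2.098-fold lower. Vim, the vimentin of mesenchyme, was 4882 in mesoderm and 2612 in epiblast and stayed just inside the limit (0.90 on the log2 scale). All 5 connexin genes above the floor were within 2-fold.

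Among immunoglobulin adhesion molecules, Ncam1 (735 in mesoderm and 184 in epiblast), Kirrel, Igsf3 and L1cam were higher, and Alcam (131 in mesoderm and 464 in epiblast) and Igsf9 were lower. Integrins, the receptors for matrix, passed in 3 of 16 genes. Itga8 was 299.6 in mesoderm and 90.04 in epiblast, 3.33-fold higher, and Itga9 was 186 in mesoderm and 77.96 in epiblast, at least 2.303-fold higher. Itga6, the laminin-binding subunit of epithelial cells, was 372 in mesoderm and 1250.0 in epiblast, 3.36-fold lower. The common subunit gene Itgb1 was 487 in mesoderm and 389.9 in epiblast, within 2-fold.

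Matrix genes past 2-fold were mostly higher in mesoderm, while the medians of the matrix families lay between -0.0033 and 0.24. Of 39 genes for elastic fibres and adhesive glycoproteins 13 were higher and 2 lower, a share of 38.5%. With values below the floor raised to it, 7 were higher and 2 lower, and the family median was 0.086 in place of 0.24. Fn1 (fibronectin), on which mesoderm cells migrate, was 5886 in mesoderm and 1667 in epiblast, 3.53-fold higher. The microfibril gene Fbn2 was 867 in mesoderm and 54.9 in epiblast, at least 10.8-fold higher, and Fbln2 was 352 in mesoderm and 83.2 in epiblast, 4.23-fold higher. Emilin1, a protein of elastic fibres, was 292 in mesoderm and 67.3 in epiblast, at least 3.63-fold higher, and the basement membrane linker gene Nid1 was at least 3.91-fold higher. The basement membrane gene Frem2 was 91.8 in mesoderm and 367 in epiblast, 4.004-fold lower, against the trend of the family, and its relative Frem1 was 146 in mesoderm and 63.3 in epiblast, at least 1.81-fold higher.

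Collagens passed in 9 of 29 genes, 7 higher and 2 lower. The network-forming basement membrane genes Col4a1 (1775 in mesoderm and 786 in epiblast) and Col4a2 (926 in mesoderm and 318 in epiblast), which lie head to head on the same chromosome, were 2.26-fold and 2.91-fold higher. Col23a1 and Col13a1, transmembrane collagens, were at least 6.09-fold higher and 5.26-fold higher. Col18a1, the parent of endostatin, was 711 in mesoderm and 1979 in epiblast, 2.78-fold lower. Of the laminin chains, Lama1 was 527 in mesoderm and 101 in epiblast, 5.22-fold higher, while Lamb1 (1036 in mesoderm and 1039 in epiblast) and Lamc1 (479 in mesoderm and 457 in epiblast), its partners in laminin-111, were level. Serpinh1, the collagen chaperone HSP47, was 2789 in mesoderm and 1183 in epiblast, 2.36-fold higher. The hyaluronan synthase gene Has2 (2.16-fold higher), the hyaluronan-binding Vcan (684 in mesoderm and 152 in epiblast, 4.48-fold higher) and the heparan sulfate proteoglycan Gpc3 (2714 in mesoderm and 1061 in epiblast, 2.56-fold higher) pointed the same way, and the brain proteoglycan gene Ncan the other (at least 1.89-fold lower).

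Contractile and cytoskeletal genes gave the next pattern. Of 34 actin, tropomyosin, troponin and related genes 7 were higher and 1 lower. The smooth muscle gene Tagln (413 in mesoderm and 139.6 in epiblast) and the calponin gene Cnn2 (1505 in mesoderm and 526 in epiblast) were 2.96-fold and 2.86-fold higher. Tnni1, the troponin I of embryonic heart, was 225 in mesoderm and 35.4 in epiblast, at least 2.79-fold higher, and Tnnc1 was 94.8 in mesoderm and 44.4 in epiblast, at least 1.18-fold higher. Myosins passed in 3 of 35 genes, a share of 8.57% that is near the 6.7% of all genes, and their median was -0.13. The 3 were myosin light chain genes of the early heart. Myl7 was 2502 in mesoderm and 262 in epiblast, 9.54-fold higher, and Myl1 was 349.7 in mesoderm and 27.7 in epiblast, at least 4.34-fold higher. Myl2 was 174 in mesoderm and 53.4 in epiblast, at least 2.16-fold higher. The bulk cytoskeletal actins did not differ, with Actb at 12264 in mesoderm and 11897 in epiblast and Actg1 at 11892 in mesoderm and 11972 in epiblast.

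Filament genes of nerve cells were lower in mesoderm. Nefl, Nefm, Nefh and Ina, the neurofilament family, were all lower and made up the 4 genes past 2-fold among 13 intermediate filaments other than keratins. Ina was 389.6 in mesoderm and 1047 in epiblast, 2.69-fold lower, Nefm was 76.9 in mesoderm and 326 in epiblast, at least 4.05-fold lower, and Nefl was 149.9 in mesoderm and 347 in epiblast, 2.31-fold lower. The neuronal tubulin gene Tubb3 (134 in mesoderm and 369.6 in epiblast) and Tuba4a (498 in mesoderm and 1612 in epiblast) were 2.76-fold and 3.24-fold lower, the only tubulins of 14 to pass. In a group assembled after the values were seen, Stmn2 (451 in mesoderm and 1407 in epiblast), Stmn3, Crmp1 and Dpysl3, microtubule regulators of growing neurites, were lower among 8 genes. So were 6 of 24 neurotransmitter receptor subunits, also grouped afterwards, with Grik3 at 184 in mesoderm and 834 in epiblast and Gabra4 at 61.8 in mesoderm and 215 in epiblast.

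**Figure D2:**
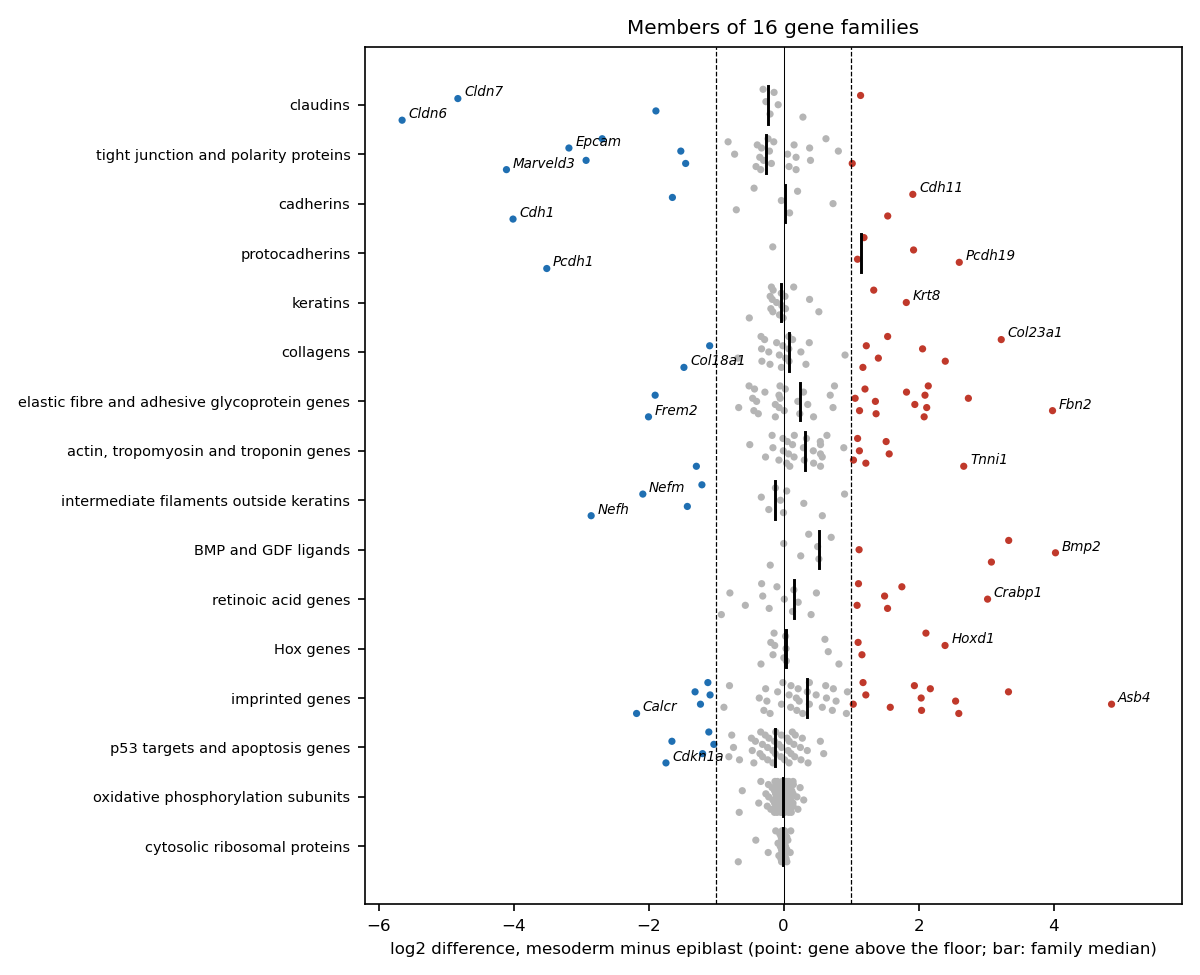
Log2 difference, mesoderm minus epiblast, of each gene above the floor in 16 families (1 point per gene, 1 array per layer, vertical spread only to separate points), with family medians as black bars and 2-fold as dashed lines. The junction families reach far to the left, matrix, BMP and retinoic acid genes to the right, and respiratory and ribosomal genes cluster at 0.

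Ligands and their receptors were set side by side for 5 signalling systems, picked after their values were seen. For the chemokine pair, the receptor gene Cxcr4 was 1138 in mesoderm and 83.5 in epiblast, 13.6-fold higher, and the scavenging receptor gene Ackr3 was 264 in mesoderm and 80.3 in epiblast, at least 3.28-fold higher. Their ligand gene Cxcl12 was 82.3 in mesoderm and 718 in epiblast, 8.72-fold lower, so receptor and ligand lay on opposite sides. PDGF showed the same arrangement. Pdgfra was 3545 in mesoderm and 658 in epiblast, 5.39-fold higher, Pdgfrb was 623 in mesoderm and 238 in epiblast, 2.62-fold higher, and the ligand gene Pdgfa was 346 in mesoderm and 919 in epiblast, 2.65-fold lower. For stem cell factor the sides were exchanged, as the ligand gene Kitl was 605 in mesoderm and 283 in epiblast, 2.14-fold higher and its receptor gene Kit was 171 in mesoderm and 349.9 in epiblast, 2.04-fold lower.

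Apelin signalling belonged to the first kind. Apln was 117 in mesoderm and 1199.8 in epiblast, 10.3-fold lower, and Apela, which encodes the second ligand of the same receptor (also called Elabela or Toddler), was 192 in mesoderm and 638 in epiblast, 3.33-fold lower. The receptor gene Aplnr was 5471 in mesoderm and 2872 in epiblast, 0.93 on the log2 scale and so just under the limit. VEGF genes were higher on both sides. The receptor gene Kdr was 2299.8 in mesoderm and 147 in epiblast, 15.7-fold higher, the coreceptor gene Nrp1 was 1346 in mesoderm and 50.8 in epiblast, at least 16.7-fold higher, and Vegfa was 379.6 in mesoderm and 149.8 in epiblast, 2.53-fold higher. All 3 other probe sets of Nrp1 were also at least 2-fold higher, whereas the second probe set of Vegfa was not (-0.19). Flt1, the decoy receptor of the family, was 367 in mesoderm and 234 in epiblast. The epidermal growth factor receptor relative Erbb3 was 40.99 in mesoderm and 348 in epiblast, at least 4.32-fold lower, and the collagen receptor kinase gene Ddr1 was 686 in mesoderm and 1558 in epiblast, 2.27-fold lower.

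**Figure D3:**
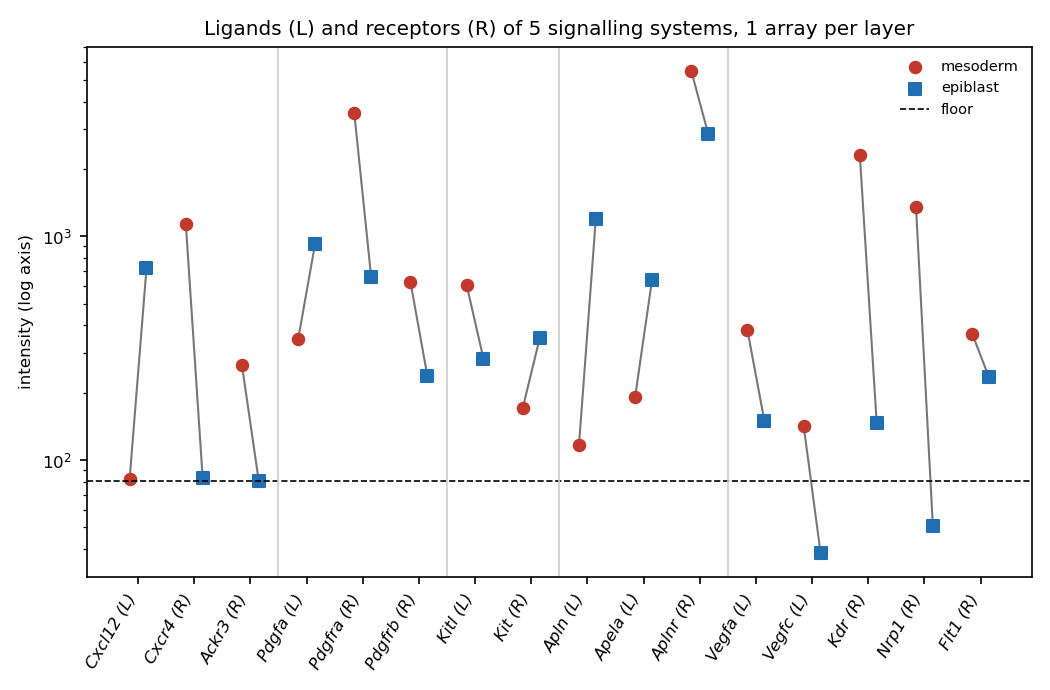
Intensity (log axis) of ligand (L) and receptor (R) genes of 5 signalling systems in mesoderm (red circles) and epiblast (blue squares), 1 array per layer, with the floor of 80.6 as a dashed line. Cxcl12, Pdgfa, Kit, Apln and Apela are lower in mesoderm, and the other genes shown are higher there.

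BMP ligands were higher in 4 and lower in 0 of 11 genes. Bmp2 was 810.2 in mesoderm and 49.7 in epiblast, at least 10.05-fold higher, Bmp4 was 1552 in mesoderm and 184 in epiblast, 8.44-fold higher, and Bmp5 was 518 in mesoderm and 51.4 in epiblast, at least 6.42-fold higher. Bmp7 was 2.17-fold higher. Several genes known to respond to BMP were higher too. Msx1 (1044 in mesoderm and 505 in epiblast) and Msx2 (787 in mesoderm and 339 in epiblast), homeobox targets of the pathway, were 2.07-fold and 2.32-fold higher. The second probe set of Msx1 was not 2-fold higher (0.14). The feedback inhibitor genes Smad7 and Bambi were 2.91-fold and 2.65-fold higher. Id4, of a family of BMP-responsive inhibitors, was 117 in mesoderm and 389 in epiblast, 3.32-fold lower. Among extracellular regulators, Bmper was 800.3 in mesoderm and 214 in epiblast, 3.74-fold higher, whereas the activin and BMP antagonist gene Fst was 1189 in mesoderm and 2752 in epiblast, 2.31-fold lower. Cer1, an antagonist of Nodal, BMP and WNT, was 1606 in mesoderm and 50.4 in epiblast, at least 19.9-fold higher, the Nodal antagonist gene Lefty2 was 1259 in mesoderm and 466 in epiblast, 2.699-fold higher, and the Nodal coreceptor gene Cfc1 was 1711 in mesoderm and 277 in epiblast, 6.18-fold higher. Nodal itself was 183 in mesoderm and 221 in epiblast.

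WNT genes divided. Of 22 ligands and Frizzled receptors 3 were higher and 4 lower. Wnt2, made by the early heart and allantois, was 488 in mesoderm and 80.4 in epiblast, at least 6.06-fold higher, and the non-canonical ligand gene Wnt5a was 1274 in mesoderm and 375 in epiblast, 3.401-fold higher. Wnt3a, of the streak, was 108 in mesoderm and 302 in epiblast, 2.797-fold lower, and Wnt8a was 3.18-fold lower. The receptors parted in the same way, with Fzd4 2.77-fold higher and Fzd5 (135 in mesoderm and 522 in epiblast) and Fzd6 3.87-fold and 2.57-fold lower. Celsr1, Celsr2 and Celsr3, the cadherins of planar cell polarity, were all lower, by 2.27-fold, 2.04-fold and 2.78-fold. Wls, the carrier that WNT proteins need for secretion, was 1587 in mesoderm and 558 in epiblast, 2.84-fold higher, Lef1 was 1566 in mesoderm and 749 in epiblast, 2.09-fold higher, and the WNT-responsive Axin2 was 653 in mesoderm and 794 in epiblast, within 2-fold.

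Among FGF genes, Fgf3 was 530.0 in mesoderm and 143 in epiblast, 3.71-fold higher, and Fgf5, an epiblast gene, was 120.5 in mesoderm and 359.9 in epiblast, 2.99-fold lower. Fgf4 (175 in mesoderm and 195 in epiblast) and Fgf8 (167 in mesoderm and 291 in epiblast) stayed within 2-fold, as did the receptor gene Fgfr1 (1587 in mesoderm and 1457 in epiblast). Of 28 ERK feedback genes above the floor 3 were higher and 2 lower, with a median log2 difference of -0.20. With values below the floor raised to it, 3 were higher and 0 lower. Phlda2, among the 3 higher genes, is also counted with the imprinted genes. Dusp9, a phosphatase that restrains ERK, was 2517 in mesoderm and 509 in epiblast, 4.94-fold higher. Spred3 was 29.4 in mesoderm and 133 in epiblast, at least 1.65-fold lower. Of 28 listed Notch pathway and oscillating genes, 7 were higher and 0 lower. Dtx1, a Notch pathway gene outside that list, was 78.9 in mesoderm and 429 in epiblast, at least 5.32-fold lower. Notch1 was 1838 in mesoderm and 854 in epiblast, 2.15-fold higher, its ligand gene Jag1 was 1487 in mesoderm and 469 in epiblast, 3.17-fold higher, and Dll3, of the segmentation clock, was 1667 in mesoderm and 688 in epiblast, 2.42-fold higher. Dll1 (1869 in mesoderm and 1207 in epiblast) and Notch2 (2424 in mesoderm and 1769.9 in epiblast) were higher by less than 2-fold. Of 19 listed retinoic acid genes, 6 were higher and 0 lower. Synthesis, binding, breakdown, uptake and reception each had a member. Aldh1a2, the synthesis enzyme, was 2894 in mesoderm and 1027 in epiblast, 2.82-fold higher, the binding protein gene Crabp1 was 2079.7 in mesoderm and 256 in epiblast, 8.11-fold higher, and Cyp26a1, the degrading enzyme, was 923 in mesoderm and 428 in epiblast, 2.16-fold higher. Rdh10 (2.13-fold), Stra6 (at least 2.04-fold) and Rarb (at least 1.89-fold) were also higher.

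Guidance genes passed on both sides. Sema6d was 1249 in mesoderm and 215 in epiblast, 5.8-fold higher, the plexin gene Plxna2 was 593 in mesoderm and 153 in epiblast, 3.88-fold higher, and Nrp2 was 609 in mesoderm and 282 in epiblast, 2.16-fold higher. Sema4d was 149 in mesoderm and 573 in epiblast, 3.85-fold lower, although 1 of its 2 other probe sets pointed the other way. Of the ephrin system, Efnb1 was 1001 in mesoderm and 336 in epiblast, 2.98-fold higher and Epha4 was 1108 in mesoderm and 517 in epiblast, 2.14-fold higher. The receptor genes Epha1 (174 in mesoderm and 635 in epiblast) and Epha2 (153 in mesoderm and 429.9 in epiblast) were 3.66-fold and 2.801-fold lower. Netrin, an axon and epithelial cue, was represented by Ntn1 at 435 in mesoderm and 984 in epiblast, and its receptor gene Unc5c was 302 in mesoderm and 127 in epiblast, 2.38-fold higher.

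The insulin-like growth factor genes were uneven too. Igf2, the main fetal growth factor, was 3421 in mesoderm and 340.2 in epiblast, 10.1-fold higher. Of its binding proteins, Igfbp4 was 2643 in mesoderm and 876 in epiblast, 3.02-fold higher, and Igfbp2 (1126 in mesoderm and 3235 in epiblast) and Igfbp3 (132 in mesoderm and 466 in epiblast) were 2.87-fold and 3.53-fold lower. The receptor gene Igf1r was 725 in mesoderm and 795 in epiblast. Grb7 and Grb14, adaptors that dock on growth factor receptors and that were grouped after their values were seen, were 107 in mesoderm and 1074 in epiblast and 86.2 in mesoderm and 497 in epiblast, 10.01-fold and 5.76-fold lower.

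The forkhead family split evenly, 5 higher and 5 lower of 28. Foxc2 was 2371 in mesoderm and 103 in epiblast, 23.1-fold higher, the largest difference on the higher side once dim values are raised to the floor, and Foxc1, its partner in somites and vessels, was 1209 in mesoderm and 149.6 in epiblast, 8.08-fold higher. On the other side, Foxd4 was 53.97 in mesoderm and 387 in epiblast, at least 4.79-fold lower, Foxa2 was 47.4 in mesoderm and 188 in epiblast, at least 2.33-fold lower, and Foxo1 was 188 in mesoderm and 524 in epiblast, 2.79-fold lower, with 3 further probe sets of Foxo1 in the same direction. Of 15 Sox genes, Sox2 (129.7 in mesoderm and 3032 in epiblast) and Sox3 (36.6 in mesoderm and 856 in epiblast), which keep cells pluripotent or neural, were 23.4-fold and at least 10.6-fold lower. Sox7, an endothelial and endodermal factor, was 322 in mesoderm and 43.7 in epiblast, at least 3.999-fold higher.

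Basic helix-loop-helix factors were higher in 8 and lower in 2 of 48 genes. Twist1, of head and limb mesenchyme, was 1528 in mesoderm and 117 in epiblast, 13.1-fold higher. Tcf21, of epicardium, was 815 in mesoderm and 7.67 in epiblast, at least 10.1-fold higher, and Hand2, of heart and limb, was 577 in mesoderm and 23.4 in epiblast, at least 7.15-fold higher. Tcf15, of somites, was 662 in mesoderm and 126 in epiblast, 5.26-fold higher, and the growth regulator gene Myc was 704 in mesoderm and 208 in epiblast, 3.38-fold higher. Ahr, the aryl hydrocarbon receptor, was 36.3 in mesoderm and 171 in epiblast, at least 2.12-fold lower, and Tfe3, which delays exit from pluripotency, was 261 in mesoderm and 656 in epiblast, 2.52-fold lower. The ETS family passed only on the higher side, at 4 of 18. Etv2, a master gene of endothelium and blood, was 1231 in mesoderm and 148 in epiblast, 8.31-fold higher, and Ets1 was 585 in mesoderm and 146 in epiblast, 3.996-fold higher.

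The list of zinc finger regulators of cell state passed in 12 genes on the higher and 8 on the lower side of 64. It also holds Grhl2, which is not a zinc finger gene. Gata6 was 1079 in mesoderm and 63.9 in epiblast, at least 13.4-fold higher, Gata4 was 274 in mesoderm and 40.4 in epiblast, at least 3.398-fold higher, and Gata2 was 591 in mesoderm and 172 in epiblast, 3.43-fold higher. The repressor genes Snai2 (802 in mesoderm and 52.2 in epiblast) and Snai1 (289 in mesoderm and 135 in epiblast) were at least 9.95-fold and 2.14-fold higher. Zeb1, which binds E-boxes of the same kind, was 288 in mesoderm and 78.3 in epiblast, at least 3.58-fold higher, and its relative Zeb2 was 160.3 in mesoderm and 190.5 in epiblast. Some genes of the list were lower. Grhl2, an activator of Cdh1 and claudin genes, was 137 in mesoderm and 615 in epiblast, 4.48-fold lower, but neither of its 2 other probe sets above the floor was 2-fold lower (the nearest to 0 was at -0.06). Klf5 was 189 in mesoderm and 475 in epiblast, 2.51-fold lower, whereas its relatives Klf4 (354 in mesoderm and 126 in epiblast), Klf6 and Klf10 were higher. Klf9 was 680.5 in mesoderm and 1858 in epiblast, 2.73-fold lower, and its 6 other probe sets above the floor were all lower. The large set of genes named Zfp, by contrast, passed in 11 of 286 (3.85%), below the background.

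Homeobox genes outside the Hox clusters passed in 27 of 80, 14 higher and 13 lower. Alx1, of head mesenchyme, was 636 in mesoderm and 35.3 in epiblast, at least 7.89-fold higher, Prrx2 was at least 3.49-fold higher, and Isl1, of the second heart field, was 1132 in mesoderm and 286 in epiblast, 3.96-fold higher. Lhx1 was 1078 in mesoderm and 209.6 in epiblast, 5.14-fold higher, and Irx1 was 793 in mesoderm and 155 in epiblast, 5.12-fold higher. Meis1 was 914 in mesoderm and 80.2 in epiblast, at least 11.3-fold higher, yet neither of its 2 other probe sets above the floor was 2-fold higher, the lowest being -0.32 on the log2 scale. Among the lower genes, Pou3f1 was 125 in mesoderm and 1558 in epiblast, 12.5-fold lower, Nanog was 81.3 in mesoderm and 830.5 in epiblast, 10.2-fold lower, and Nkx1-2, of the caudal epiblast, was 349 in mesoderm and 2413 in epiblast, 6.91-fold lower. Pou5f1 (Oct4) was 2159 in mesoderm and 5735 in epiblast, 2.66-fold lower and thus remained far above the floor in mesoderm. The head genes Otx2 (2.16-fold), Six3 (at least 3.29-fold) and Hesx1 (4.41-fold) were lower, as was Gbx2 (2.804-fold).

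Of 16 Hox genes above the floor 4 were higher and 0 lower. Hoxd1 was 543 in mesoderm and 104 in epiblast, 5.24-fold higher, Hoxb2 was 1782 in mesoderm and 829.5 in epiblast, 2.15-fold higher, and Hoxb6 was 122 in mesoderm and 28.3 in epiblast, at least 1.51-fold higher. Hoxb1, the earliest gene of its cluster, was 2247 in mesoderm and 1470.4 in epiblast, and Hoxb4 was 222 in mesoderm and 217 in epiblast. Among T-box genes, Tbx20, of the heart, was 749 in mesoderm and 57.8 in epiblast, at least 9.29-fold higher, Tbx3 was 656 in mesoderm and 248 in epiblast, 2.65-fold higher, and Eomes, which starts mesoderm formation in the streak, was 470.2 in mesoderm and 886 in epiblast.

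Chromatin genes were mostly level, and the exceptions were individual subunits. Smarcd3 (Baf60c), the heart and muscle subunit of the SWI/SNF remodeller, was 889 in mesoderm and 88.6 in epiblast, 10.03-fold higher. It was the only one of 49 remodeller genes past 2-fold. Polycomb genes passed in 5 of 36. Cbx7, the chromobox protein of pluripotent cells, was 68.2 in mesoderm and 437 in epiblast, at least 5.42-fold lower, but its other probe set above the floor was level (-0.05). Phc1 was 1016 in mesoderm and 2457 in epiblast, 2.42-fold lower, and Pcgf5 was 807 in mesoderm and 329 in epiblast, 2.45-fold higher. Both macroH2A genes, whose histone variants mark silent chromatin, were higher, Macroh2a1 at 2107 in mesoderm and 881 in epiblast and Macroh2a2 at 1010.0 in mesoderm and 493 in epiblast. The DNA methyltransferase gene Dnmt3b was 3706 in mesoderm and 9027 in epiblast, 2.44-fold lower, Dnmt3a was 1213 in mesoderm and 2296 in epiblast, just within the limit, and the maintenance enzyme gene Dnmt1 was level at 2949.8 in mesoderm and 2986 in epiblast. Of 82 histone demethylases, methyltransferases and deacetylases, 0 passed.

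Imprinted genes, expressed from a single parental copy and many of them growth regulators, were higher in 12 and lower in 5 of 47 (36.2%, median 0.35). Asb4, of vessel development, was 1152 in mesoderm and 39.8 in epiblast, at least 14.3-fold higher. The growth inhibitor genes Cdkn1c (2912 in mesoderm and 498 in epiblast) and Phlda2 (7889 in mesoderm and 1922 in epiblast), which lie in the same cluster, were 5.84-fold and 4.103-fold higher, and Mest was 2729 in mesoderm and 713 in epiblast, 3.83-fold higher. Peg3 was 7169.8 in mesoderm and 4304 in epiblast and stayed within 2-fold. In the Dlk1 cluster of chromosome 12 the paternally expressed Dlk1 was 243 in mesoderm and 58.96 in epiblast, at least 3.01-fold higher, while the maternally expressed noncoding transcripts Rian and Mirg were 1389 in mesoderm and 3262 in epiblast and 160.1 in mesoderm and 341 in epiblast, 2.35-fold and 2.13-fold lower, and Meg3 was 1502 in mesoderm and 2773 in epiblast. Meg3, also maternally expressed, thus ran the same way as Rian and Mirg but within the limit.

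Splicing regulators passed in 7 of 39 genes. Esrp1, the epithelial splicing regulator, was 94.9 in mesoderm and 1173 in epiblast, 12.4-fold lower, and Esrp2 was below the floor in both layers. Elavl3, a neuronal RNA-binding protein, was 85.3 in mesoderm and 274 in epiblast, 3.22-fold lower, and Celf4 was 239 in mesoderm and 480.4 in epiblast, 2.01-fold lower. Rbm24, which directs splicing in heart muscle, was 1382 in mesoderm and 282 in epiblast, 4.904-fold higher, Rbm20, the regulator of titin splicing, was 219 in mesoderm and 64.6 in epiblast, at least 2.71-fold higher, and Rbms1 was 4881 in mesoderm and 1757 in epiblast, 2.78-fold higher. Of 48 DEAD and DEAH box helicases 0 passed.

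Survival and growth regulators included the largest differences on the lower side with values below the floor raised to it. Pim2, a constitutively active survival kinase, was 91.5 in mesoderm and 3291 in epiblast, 35.97-fold lower, and its relatives Pim1 (479.6 in mesoderm and 521 in epiblast) and Pim3 (889 in mesoderm and 643 in epiblast) were within 2-fold. Eras, a Ras protein of embryonic stem cells, was 95.8 in mesoderm and 2609.8 in epiblast, 27.2-fold lower, and Nras was level at 2245 in mesoderm and 2096 in epiblast. The Ras activator genes Rasgrp2 and Rasgrp3 went apart, Rasgrp2 at 139 in mesoderm and 786 in epiblast and Rasgrp3 at 1613 in mesoderm and 244 in epiblast. Of 47 p53 target and apoptosis genes 5 were lower and 0 higher, a share of 10.6% beside the 6.7% of all genes. Cdkn1a (p21) was 176 in mesoderm and 590.0 in epiblast, 3.35-fold lower, and the cell death genes Bmf, Pmaip1 and Bid were 3.15-fold, 2.298-fold and 2.16-fold lower. Neither of the 2 other probe sets of Bmf above the floor was 2-fold lower (the nearest to 0 was at -0.18). The other probe set of Bid was also under the limit (-0.73). Mdm2, another p53 target, was 596 in mesoderm and 626 in epiblast. The cyclin-dependent kinase gene Cdk6 was 716 in mesoderm and 228 in epiblast, 3.14-fold higher.

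Transmembrane and secreted serine proteases were higher in 3 and lower in 2 of 36 genes, and serpins and other protease inhibitors were higher in 5 and lower in 3 of 34. Both lower proteases act in epithelia, and they and their inhibitors were picked out after their values were seen. St14 (matriptase), a membrane serine protease of epithelia, was 61.5 in mesoderm and 272 in epiblast, at least 3.38-fold lower, and Prss8 (prostasin), which acts with it, was 68.3 in mesoderm and 329 in epiblast, at least 4.08-fold lower. Their inhibitor genes Spint1 (141 in mesoderm and 516 in epiblast) and Spint2 (643 in mesoderm and 3150.0 in epiblast) were 3.67-fold and 4.901-fold lower. These 2 proteases and 2 inhibitors thus lay on the same side. On the higher side were Pcsk5, a proprotein convertase, at 652 in mesoderm and 87.9 in epiblast, the clotting inhibitor gene Tfpi (1002 in mesoderm and 117 in epiblast) and the metalloprotease gene Adam19 (1272 in mesoderm and 325 in epiblast). Glycosyltransferases passed in 15 of 71 genes, 8 higher and 7 lower. The ganglioside synthesis gene St3gal5 was 428 in mesoderm and 169 in epiblast, 2.54-fold higher, and Galnt3, which starts mucin-type chains in epithelia, was 27.9 in mesoderm and 213 in epiblast, at least 2.65-fold lower.

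Metal, redox and metabolic genes passed on both sides. Oxygen, heme, iron and related stress genes were higher in 2 and lower in 2 of 37, cytochrome P450, glutathione transferase and aldehyde dehydrogenase genes were higher in 3 and lower in 4 of 43, and serine, one-carbon and nucleotide genes were lower in 1 of 46, a share of 2.17% that is below the background. The metallothionein genes Mt1 and Mt2, which buffer zinc and copper and lie side by side, were 231 in mesoderm and 2798 in epiblast and 329 in mesoderm and 3719 in epiblast, 12.1-fold and 11.3-fold lower, whereas Mt3 was 166 in mesoderm and 186 in epiblast. Mgst1, a membrane glutathione transferase, was 95.9 in mesoderm and 840.3 in epiblast, 8.76-fold lower. Gldc, of the glycine cleavage system, was 322 in mesoderm and 1429 in epiblast, 4.44-fold lower. The arginine and lysine carrier gene Slc7a3 was 208 in mesoderm and 1115 in epiblast, 5.35-fold lower, and Slc38a4, an imprinted amino acid carrier, was 1574 in mesoderm and 527 in epiblast, 2.99-fold higher. Other solute carriers passed in 11 of 174 genes, 6.32%, a share near the background. The zinc carrier gene Slc39a8 was 990.3 in mesoderm and 259.8 in epiblast, 3.81-fold higher.

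Housekeeping machinery was level. Of 88 oxidative phosphorylation subunits, 48 cytosolic ribosomal proteins, 45 proteasome subunits, 76 DNA replication and mitosis genes, 35 glycolysis genes and 29 dynein, intraflagellar transport and Bardet-Biedl genes, 0 passed 2-fold. The 9 families without a gene past the limit held 456 genes above the floor, and their medians ran between -0.12 and 0.18. Mitochondrial ribosomal proteins passed in 1 of 75, and heat shock proteins and chaperonins in 1 of 72.

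The genes past 2-fold were spread over all levels and chromosomes. With the genes cut into 4 equal groups by the higher value of the pair, the share was 4.64% in the dimmest, 8.59% and 7.91% in the next ones and 5.67% in the brightest. By chromosome they ran between 4.85% (chromosome 16) and 11.9% (X chromosome, 47 of 394 genes, 20 higher and 27 lower). Chromosome 18 was next at 11.6% (34 of 294), and the other chromosomes were at most 9.35%. Pim2, Eras, Sox3, Apln, Mcf2 and Slc7a3 were among the X-linked genes lower in mesoderm, and Capn6, Pcdh19 and Dusp9 among those higher. These shares are descriptions of 1 pair of arrays.

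Probe sets of the same gene served as the only repeat reading. Of the 429 higher genes, 189 had another probe set above the floor. For 161 of these all others ran in the same direction, and for 130 at least 1 other was itself 2-fold higher. Of the 398 lower genes 137 had another, with 132 and 88 by the same counts. A second probe set ran the other way for 28 higher genes and 5 lower genes, and 0 genes had probe sets at least 2-fold apart in opposite directions. Among the 28 were the cytokine receptor gene Lifr, whose probe sets ran between -0.19 and 1.72, the Hedgehog receptor gene Ptch1 (-0.12 and 1.27), the heparan sulfate enzyme gene Hs3st3b1 (-0.09 and 2.56), Kirrel (-0.24 and 1.53) and Meis1. Another probe set in the same direction could still lie near 0, as for Fzd5 (-0.03), Fzd6 (-0.20), F11r (-0.17), Grik3 (-0.11) and Gata2 (0.06). Apela (-0.25) and Tuba4a (-0.15) were further cases. For the remaining 240 higher and 261 lower genes the value rests on 1 probe set above the floor, and these include Foxc2, Kdr, Twist1, Cxcr4, Pim2, Eras, Sox2, Cldn6 and Cdh1.

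Outside the families, 169 higher and 212 lower genes remained, of which a few were named after their values were seen. Capn6, a calpain-like protein that stabilises microtubules, was 894 in mesoderm and 53.01 in epiblast, at least 11.1-fold higher. Its other probe set above the floor was under the limit (0.72 on the log2 scale). Hmga2, a chromatin architectural protein of growing embryonic tissue, was 5841 in mesoderm and 2003 in epiblast, 2.92-fold higher. On the lower side, Camsap3, which anchors microtubules at the apical side of epithelial cells, was 125 in mesoderm and 784 in epiblast, 6.27-fold lower, and the apical membrane linker gene Ezr was 540.3 in mesoderm and 1723 in epiblast, 3.19-fold lower. Nup210, a nuclear pore protein, was 90.5 in mesoderm and 711 in epiblast, 7.86-fold lower, and the transcription factor gene Myb was 53.4 in mesoderm and 539.5 in epiblast, at least 6.69-fold lower. Annexin and S100 genes, likewise grouped afterwards, were higher in 3 of 12, with S100a10 at 2271 in mesoderm and 778 in epiblast and its partner Anxa2 at 419 in mesoderm and 192 in epiblast. Of 10 phospholipases C, grouped in the same way, 3 were lower and 0 higher, among them Plch1 at 94.3 in mesoderm and 759 in epiblast.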

How the data were processed

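The deposited table holds intensities on a linear scale that the authors made with RMA (background and normalization) and the affy package. A value of exactly 1, the lowest, stood at 32 probe sets in mesoderm and 34 in epiblast, and the medians were 79.9 and 82.2 over 45037 probe sets, so the form points to a step beyond RMA, which the sources used here do not give. Of the probe sets 34945 had 1 gene symbol, 932 several and 9160 none. Symbols were checked through Entrez identifiers (34741 found, 0 altered). Intensities were taken to log2 and subtracted as mesoderm minus epiblast. A gene counted as different at 2-fold with the higher value above the floor, and "at least" folds take the floor in place of a lower value beneath it. The test named in the study's methods, Significance Analysis of Microarrays, needs replicates and was not run, and precision is limited by the number of arrays. The calculation was tested on simulated data. Python 3.11.15, pandas 2.3.3, numpy 2.4.6 and statsmodels 0.14.6 were used.

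Families came from gene symbols (whole families by name pattern, pathways by list). They and the members were chosen with earlier results of these data known, and 5 families were added after the values were seen. Genes named are the 10 with the largest difference in each direction, up to 5 per family and direction among those past the limit, up to 2 members against the family or bright and level, the layer markers, and the few stated to be chosen afterwards. The alternatives tried were other floors, probe set rules, normalizations and centrings, fold limits and a pseudocount of 16.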

Additional observations from a re-analysis of the deposited data

Results flagged for a closer look

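Probe sets without a gene symbol entered none of the family counts, and 2262 of them were above the floor. Past the 2-fold limit, 32 of these were higher in mesoderm and 30 lower. Their genes are not named here.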

How the results depend on the processing

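The counts of 429 higher and 398 lower genes stayed within 1.5 times under 20 of 26 alternative counts. With the floor at the 75th percentile of all values they were 285 and 216, since fewer genes (7156) enter. At a 1.5-fold limit they were 846 and 774, and at a 3-fold limit 180 and 191. The share of higher among the genes that passed ran between 48.5% and 56.9%. With the mean over the probe sets of a gene the counts were 311 and 319, of which 296 and 294 were shared with those reported. Centring on the housekeeping median gave 418 and 415, with 418 and 398 shared. Of 5962 comparisons of single genes with an alternative, 5506 moved by less than 0.26 on the log2 scale and 452 moved by more. The other 4 were genes past the 2-fold limit that changed sign. Sign changes of genes within the limit were not counted apart. With the probe set chosen over the pair only, Cldn2 was at -0.14, Elf1 at -0.022, Mbd2 at -0.061 and Slco3a1 at -0.068, where the reported values were 1.14, 1.58, 1.18 and 1.24. The protocadherin median was -0.0725 with no floor, which takes in dim genes. Of the other 1055 family medians under an alternative, 1031 moved by less than 0.26. Of those that moved further, 19 did so with the floor at the 75th percentile, under which fewer genes enter, as for claudins (-4.83, reported -0.23), BMP and GDF ligands (3.21, reported 0.52) and tight junction and polarity genes (0.06, reported -0.26). The cause of the other moves was not tested. No paired analysis was possible because each layer has 1 array. The level of a gene near the floor of 80.6 limits how large a difference can be seen.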
